A study of Mus musculus with 2 samples.

Results

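The 578 cells described here are the shallow cells of a bone marrow stromal library, that is, the cells of the authors' cell table with fewer than 1000 unique molecular identifiers (UMIs, each a counted RNA molecule). They made up 13.6% of the 4250 cells of that library, LepR_tdT, and held 1.62% of the UMIs of its cells, and the series had 8786 cells in all. Bone marrow cells of adult C57Bl/6JCrl mice, aged 3 to 4 months and of genotype LepR-Cre;LSL-tdTomato, were profiled cell by cell in droplets, from polyA RNA, in 2 libraries: 1 of tdTomato+ cells (LepR_tdT) and 1 of endothelial cells (EC). In these mice Cre is driven from the leptin receptor gene, so tdTomato marks cells that have expressed it at any time, and the endothelial cells come from the same genotype. The protocol text mentions tamoxifen gavage and several stains by sample numbers that do not map clearly onto these libraries, and it states no gate and no number of animals, so the populations were taken from the labels. Each group was a single library, so nothing was tested across samples, and the intervals given are exact 95% intervals for counting error only. The shallow cells were compared with 3426 deep Cxcl12-rich cells of the same library (1000 UMIs or more, Cxcl12 at 1% or more of UMIs) and with free RNA, the summed UMIs of 232406 barcodes of that library with 10 or fewer UMIs.

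Leptin receptor-expressing stromal cells surround the sinusoids of the marrow and supply blood-forming cells with the chemokine Cxcl12 and with stem cell factor (Kitl). A droplet may receive a whole cell, a damaged cell, a nucleus, a fragment of cytoplasm or only RNA dissolved in the suspension. Transcripts of the mitochondrial genome lie inside the organelle, Malat1, Neat1 and Kcnq1ot1 are long noncoding RNAs retained in the nucleus, and messages of ribosomal proteins are short and mostly cytoplasmic, so these groups mark different compartments of a cell.

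The nuclear RNAs on which the results turn were read from the GENCODE M21 transcripts (GRCm38), 1 longest transcript per gene. Malat1 (chromosome 19, 5795690 to 5802672, minus strand, unspliced, 6983 bases) is cleaved at its 3′ end and has no ordinary poly(A) tail, and it lies beside Neat1 (chromosome 19, 5824708 to 5845478, minus strand), the scaffold of paraspeckles. Kcnq1ot1 (chromosome 7, 143203458 to 143296549, minus strand) is an imprinted antisense RNA. The longest run of A in each transcript is shown in capitals with 20 bases on either side, because the labels give polyA RNA as the molecule measured. The runs begin at base 6674 of 6983 in Malat1, 9539 of 20771 in Neat1 and 69565 of 93092 in Kcnq1ot1.
Malat1: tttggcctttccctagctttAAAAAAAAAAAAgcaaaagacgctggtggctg
Neat1: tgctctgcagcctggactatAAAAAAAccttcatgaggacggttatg
Kcnq1ot1: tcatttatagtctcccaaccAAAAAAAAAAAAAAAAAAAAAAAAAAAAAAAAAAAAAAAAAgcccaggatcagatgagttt
A run of at least 12 A, as in Malat1, was present in 20.8% of 3300 transcripts of 5 to 9 kb and in 8.23% of all 27645 transcripts matched. A run of at least 7 A, as in Neat1, was present in 75.9% of 79 transcripts of 15 to 25 kb. A run of at least 41 A was present in 9 of the 27645 transcripts, Kcnq1ot1 among them. The letters on the transcript strand were searched, and whether any of these runs was primed in these libraries was not tested.

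The shallow cells had a median of 459.5 UMIs (235 to 997) and 284 genes (201 to 642), against 4677 UMIs and 2000 genes in deep Cxcl12-rich cells. UMIs and genes chose the members or limited the table, whose smallest cell had 201 genes, so these values are a description. Barcodes of the same UMI range that are not in the table numbered 260 and had at most 199 genes each. In 42 of the 4250 LepR_tdT cells the barcode was also an EC cell. Of the shallow cells, 17 were among them (2.94%, 1.72 to 4.67), against 22 of 3426 deep Cxcl12-rich cells (0.642%). In 14 of the 17 the UMI numbers in LepR_tdT and EC were within 1.5-fold of each other, a tolerance set after the values were seen. Why the libraries share these barcodes, and whether they hold cells, was not tested. These 14 barcodes had 244 to 470 UMIs in LepR_tdT and 247 to 485 in EC.

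**Figure D1:**
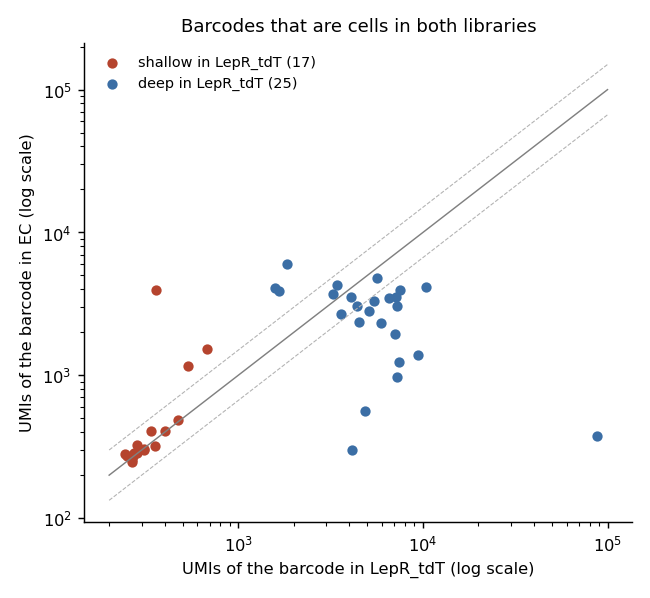
UMIs of each barcode that is a cell in both libraries, in LepR_tdT (x axis, log scale) and in EC (y axis, log scale). The solid line marks equal numbers and the dashed lines a 1.5-fold difference, and 14 of the 17 shallow cells lie between the dashed lines at 244 to 470 UMIs.

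The 14 barcodes of near equal depth also stood apart in their RNA. Ribosomal protein messages were 25.8% of their 4314 UMIs, against 6.25% in the other 564 shallow cells. Cxcl12 was at 1% of UMIs or more in 1 of the 14, and 5 had no Cxcl12 UMI. Proteinase 3 (Prtn3), a neutrophil granule enzyme picked after its value was seen, was at 2782 CPM (UMIs per 1000000 UMIs of a class; 12 UMIs), against 27.6 CPM (8 UMIs) in the other 564 shallow cells and 74.97 CPM in free RNA. Cathepsin G (Ctsg), picked likewise, was at 1391 CPM (6 UMIs), against 6.89 CPM (2 UMIs) in the other shallow cells and 32.8 CPM in free RNA. Xist, the RNA that coats the inactive X chromosome of female cells, was at 1391 CPM in these 14 barcodes (6 UMIs, in 5 of them), and 2 of the other 564 shallow cells had a Xist UMI. With all 17 shared barcodes left out, the log2 ratio of mitochondrial transcripts over deep cells was 2.33 in place of 2.32, that of nuclear-retained transcripts 1.09 in place of 1.07, and the stromal marker median −0.34 in both cases.

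Counts of cells with stromal marker UMIs cannot settle whether a droplet held a stromal cell, because free RNA would reach such counts at this depth. Summed granulocyte and endothelial markers did differ between shallow cells and free RNA and are given further on. At least 2 UMIs of 30 stromal markers were present in 571 of 578 shallow cells (98.8%), and Cxcl12 made up 1% of UMIs or more in 468 (81.0%, 77.5 to 84.1). Free RNA of the same library was itself 4.63% stromal marker UMIs and 1.66% Cxcl12, and by these shares 300 of its UMIs would hold 13.9 stromal marker UMIs on average. Thinned to 300 UMIs per cell, 475 of 500 shallow cells had a Cxcl12 UMI (92.7 to 96.7%), below the 99.3% that draws of 300 UMIs from free RNA would give by the binomial distribution. The thinned share was 99.9% in deep Cxcl12-rich cells, which were chosen for Cxcl12, and 1.61% in deep EC cells. The unthinned shares were 97.4% in shallow, 100% in deep Cxcl12-rich and 10.2% in deep EC cells, at median depths of 459.5, 4677 and 3401.5 UMIs, and 78 shallower cells were left out of the thinned value. Summed, stromal markers were 6.70% of UMIs in shallow cells, against 9.13% in deep Cxcl12-rich cells, 4.63% in free RNA and 6.73% in barcodes with 11 to 50 UMIs. The tdTomato transcript gave 2 UMIs in all shallow cells together (6.79 CPM), against 18.8 CPM in deep Cxcl12-rich cells, so it checks nothing at this depth. The 18 endothelial markers together stood at 777.1 CPM in shallow cells, against 208.8 CPM in deep Cxcl12-rich cells (log2 ratio 1.90) and 6466 CPM in free RNA, and 27 shallow cells held at least 2 of their UMIs. Of these markers, Cdh5, which encodes VE-cadherin, had 5 UMIs in shallow cells, and 4, Flt1, Flt4, Tie1 and Robo4, were at 0.

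Mitochondrial transcripts were higher in shallow cells than in deep cells. They made up 11.9% (11.8 to 12.0) of the summed UMIs of shallow cells, against 2.39% in deep Cxcl12-rich cells and 5.85% in free RNA. A gene counted as measured where its mean CPM of both classes corresponded to at least 30 UMIs in the smaller class, and as higher or lower at a 2-fold difference. By this rule 35 of 1479 measured genes were higher in shallow than in deep Cxcl12-rich cells, a background of 2.37%, and 17 were lower, 1.15%. Scaled by the median ratio, 79 were higher and 2 lower, and scaled without mitochondrial genes, 38 and 6. All 10 measured mitochondrial genes of 13 were among the higher ones, at log2 ratios from 2.12 for mt-Nd5 to 2.45 for mt-Nd1, a complex I subunit. mt-Nd1 stood at 12308 CPM in shallow cells and 2254 CPM in deep cells, and mt-Co3, a subunit of cytochrome c oxidase, at 21637 against 4288 CPM. Against free RNA, where 84 of 1400 measured genes were at least 2-fold higher, 6%, and 155 lower, 11.1%, 6 of the 10 mitochondrial genes were higher and 4 fell short of 2-fold (summed log2 ratio 1.03, 1.00 to 1.05). Of 26 measured nuclear-encoded genes of the respiratory chain 0 were called, with a median log2 ratio of −0.46 against −0.31 over all measured genes.

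Nuclear-retained RNAs were also higher in shallow cells. Malat1 made up 8.68% of UMIs in shallow cells (8.58 to 8.78), against 4.14% in deep Cxcl12-rich cells and 3.55% in free RNA, a log2 ratio over deep cells of 1.07 (1.05 to 1.08). Neat1 stood at 671.9 CPM in shallow cells and 332.3 CPM in deep cells, and Kcnq1ot1 at 207.0 CPM (61 UMIs) against 66.5 CPM. All 3 measured members of the list of 16 were thus at least 2-fold higher than in deep cells, and the other listed genes had too few UMIs or were not analysed here. Against free RNA, Malat1 (1.29) and Kcnq1ot1 (1.34) were higher, Neat1 was at 0.60, and Xist was lower at 27.1 CPM (8 UMIs) in shallow cells against 367.8 CPM in free RNA. The direction of this group against deep cells depended on which shallow cells were summed: without cells at or above the median mitochondrial share, the summed log2 ratio was −1.85 in place of 1.07, and below 500 UMIs it was 0.41.

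Stromal markers as a group lay near the median of all measured genes. Of 27 measured stromal markers other than Cxcl12, which chose the deep cells, 0 were higher and 1 was lower. Over all measured genes the shares were 2.37% higher and 1.15% lower. The median log2 ratio of the markers was −0.34, against −0.31 over all measured genes. The lower marker was follistatin, Fst, at 254.5 CPM in shallow cells and 565.3 CPM in deep cells (log2 ratio −1.15, −1.50 to −0.82). Among hormones and carrier proteins of these cells, adiponectin (Adipoq) was at 1513 CPM in shallow against 2645 CPM in deep cells (−0.81), haptoglobin (Hp) at −0.66 and apolipoprotein E (Apoe) at −0.51. Among niche ligands, Kitl stood at 736.4 against 775.7 CPM (−0.08, −0.28 to 0.12), Csf1, the macrophage growth factor, at −0.12, and Il34, the other ligand of its receptor, at −0.94. Among receptors, Lepr stood at 950.2 CPM in shallow against 644.0 CPM in deep cells (0.56, 0.38 to 0.73), Pdgfrb at 0.21 and Pdgfra at 0.18, none of them 2-fold apart. Scaling by the median ratio would raise every log2 ratio of this comparison by 0.31, so values between −0.31 and 0 have no settled direction. Cxcl12 itself was at 25736 CPM in shallow cells and 35730 CPM in the deep cells that it had chosen.

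Stromal transcription factors stood above the rest without reaching 2-fold. Of 14 measured members 0 were called and the median log2 ratio was 0.28. Over all measured genes 2.37% were higher and 1.15% lower, with a median of −0.31. A list as small as those of this paragraph would thus hold few called members in any case, so 0 called says little. Ebf1, which keeps these cells from osteoblast fate together with Ebf3, was at 1435 CPM in shallow and 836.8 CPM in deep cells (0.78, 0.64 to 0.92), and Ebf3 at 0.74. Zeb2 was at 0.66, while Snai2 was at −0.65 (−1.20 to −0.15). Genes of secretion and of the cytosol lay near or somewhat below the overall median. Of 15 measured genes of the endoplasmic reticulum 0 were called (median −0.42), and of 20 glycolytic and cytosolic genes 0 (median −0.33). Of 16 collagen and matrix genes 1, Col8a1, was lower (median −0.48). Stress lists held no called member either: the medians were −0.48 over 5 measured apoptosis and p53 target genes, −0.08 over 4 genes of the integrated stress response and −0.28 over 14 immediate early genes. Of 5 measured osteolineage markers 0 were called (median −0.38), with bone sialoprotein (Ibsp) at −0.83 and the osteoblast regulator Runx2 at 0.52.

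Among the other genes, the ratios over deep cells were highest for a pair of platelet chemokine genes, Ppbp and Pf4. Leaving out mitochondrial, ribosomal, haemoglobin and predicted genes, the 10 highest were Ppbp, Pf4, Fabp4, Etnk1, Kcnq1ot1, Nfat5, Clk1, Vegfa, Ccnt2 and Ddx17. Of these, Fabp4 (115.0 CPM), Clk1 (132.0 CPM) and Ddx17 (102.0 CPM) were above the minimum of 101.8 CPM in deep cells. The others counted as measured only through shallow cells and would not have been ranked at equal levels. Clk1, a kinase of splicing factors, stood at 386.9 CPM in shallow and 132.0 CPM in deep cells (log2 ratio 1.55, 1.27 to 1.82), and its 114 UMIs came from 93 cells. Nfat5, a transcription factor of the response to osmotic stress, was at 1.59 (1.18 to 1.98), the ethanolamine kinase gene Etnk1 at 1.84, the vascular growth factor gene Vegfa at 1.43, cyclin T2 (Ccnt2) at 1.28 and the RNA helicase gene Ddx17 at 1.16. These genes were spread over many cells, with at most 4 UMIs of Vegfa, 3 of Clk1 and 2 of Nfat5 in any 1 cell. The 10 lowest were Rras, Cited2, Col8a1, Chmp4b, Med28, Rspo3, Fst, Mydgf, Vkorc1 and Psma5, from the small GTPase gene Rras at −1.88 (44.1 CPM, 13 UMIs, against 161.8 CPM) to the proteasome subunit gene Psma5 at −1.10.

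The genes that were higher than in deep cells were longer than the rest. The 24 higher genes that were neither mitochondrial nor ribosomal nor Malat1 had a median spliced length of 5.61 kb and a median gene span of 19.9 kb, against 2.57 kb and 14.9 kb over 1387 measured genes of that kind, and the 17 lower genes had 2.41 kb and 9.05 kb. Several of the higher genes, Etnk1, Nfat5, Vegfa and Ccnt2 among them, counted as measured only through shallow cells. Over the 1387 measured genes left after these exclusions the median log2 ratio was −0.48 for 151 genes under 1 kb, −0.42 for 345 of 1 to 2 kb, −0.31 for 516 of 2 to 4 kb, −0.08 for 292 of 4 to 8 kb and 0.30 for 83 of 8 kb and over. Transcripts of 4 kb or more took 31.3% of the UMIs of shallow cells that were not mitochondrial, ribosomal or Malat1, against 26.0% in deep Cxcl12-rich cells and 23.8% in free RNA. These UMI shares do not depend on which genes counted as measured. Among genes of 4 to 8 kb, the median was −0.03 for 90 genes with a run of at least 12 A and −0.10 for 202 without. In the cells with 10% or more mitochondrial UMIs, the same medians over deep cells were 0.55 for 39 genes with such a run and −0.12 for 82 without. There, genes of 2 to 4 kb were at −0.85 (21 genes) with a run and −0.93 (165 genes) without, so the medians of both kinds were higher at 4 to 8 kb than at 2 to 4 kb.

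Blood cell RNA was concentrated in few shallow cells. All 4 measured erythroid markers, the haemoglobin genes, were higher in shallow than in deep Cxcl12-rich cells. Their log2 ratios ran from 2.68 for Hba-a2 to 3.61 for Hbb-bt, and Hbb-bs stood at 1690 CPM against 216.9 CPM. The choice for Cxcl12 left 246 other deep cells out of the ratios of this paragraph, and shallow cells were not so chosen. Haemoglobin was 0.435% of summed UMIs in shallow, 0.05% in deep Cxcl12-rich, 1.45% in other deep and 0.155% in all deep cells. Of the 1281 haemoglobin UMIs of shallow cells, 1110 were in 7 cells. The platelet chemokine genes Ppbp (3.82, 66 UMIs in 28 cells) and Pf4 (3.78, 58 UMIs in 22 cells) were the highest of the ranked genes, and 2 cells held 69 of their 124 UMIs. Fabp4, a fatty acid binding protein of endothelial and fat cells, was at 461.5 CPM in shallow and 115.0 CPM in deep cells (2.00, 1.74 to 2.26), against 4596 CPM in free RNA. At least 2 UMIs of a list were seen in 43 cells for erythroid, 27 for endothelial, 17 for granulocyte and monocyte, 12 for megakaryocyte and 0 for lymphoid markers. Leaving out the 116 cells with at least 2 UMIs over these lists together changed the counts to 22 genes higher and 11 lower, and the mitochondrial log2 ratio to 2.29.

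Against the free RNA of their own library, shallow cells held fewer granulocyte and endothelial messages and more stromal ones. Their summed haemoglobin was higher too, through few cells. All 6 measured granulocyte and monocyte markers were lower in shallow cells than in free RNA (median log2 ratio −4.78), as were all 5 measured endothelial markers (median −2.54), while the median over all measured genes was −0.06. Of all 1400 measured genes 6% were higher and 11.1% lower. Genes under the minimum of 101.8 CPM in shallow cells counted as measured only where free RNA held more, which fixes their direction. Summed over each whole list without that filter, the log2 ratio was −4.04 (−4.29 to −3.80) for granulocyte and monocyte markers. For endothelial markers it was −3.06 (−3.26 to −2.86). Erythroid markers together stood at 4632 CPM in shallow cells, against 2364 CPM in free RNA (log2 ratio 0.97, 0.85 to 1.09). Of the 1281 haemoglobin UMIs in that sum 1110 were in 7 cells, so its direction does not describe most shallow cells. Of 5 measured erythroid markers 2 were higher and 0 lower, and of 2 measured megakaryocyte markers 0 were called. S100a8, a granulocyte calcium-binding protein, had 28 UMIs in shallow cells (log2 ratio over free RNA −4.92) and 2868 CPM in free RNA, and the class II invariant chain Cd74 stood at 74.7 CPM in shallow cells against 2640 CPM in free RNA. Of 28 measured stromal markers, Cxcl12 included, 6 were higher and 0 lower (median 0.61), with Lepr at 1.79 and Kitl at 1.05. Against barcodes with 11 to 50 UMIs in place of 10 or fewer, that median was 0.13. Of 13 measured stromal transcription factors 5 were higher (median 0.79). The highest ranked genes were Ctgf, Nfat5, Zfhx4, Maf and Ebf3. Of them only Ebf3 was above the minimum of 101.8 CPM in free RNA, and the others counted as measured only through shallow cells. The lowest were Ly6c1, Retnlg, H2-Aa, Fabp1 and Gpihbp1, with Fabp1 at 0 UMIs in shallow cells against 466.2 CPM in free RNA. Ribosomal protein messages were 6.53% of UMIs in shallow cells, against 17.4% in free RNA and 8.33% in deep cells. Ebf3, a transcription factor of these stromal cells, led the stromal markers at 1.85 (624.4 against 173.4 CPM).

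The shallow cells were far from uniform among themselves. The mitochondrial share of single cells had a median of 4.52%, quartiles of 0.853% and 19.1% and a maximum of 50.2%, with 0 mitochondrial UMIs in 71 cells, against a median of 2.20% in deep Cxcl12-rich cells. For description, 158 cells below 1% (low), 174 from 1 to below 10% (middle) and 246 at 10% or more (high) were summed separately. These limits were chosen after the values were seen and mark ranges, not cell types: 34 cells lay between 0.8 and 1.2% and 33 between 8 and 12%. Median depths were 370.5, 383.5 and 540 UMIs from low to high. Malat1 was 0.541% of UMIs in the low range, 6.53% in the middle and 13.9% in the high range, ribosomal protein messages 11.4%, 8.45% and 3.06%, and stromal markers without Cxcl12 5.16%, 4.96% and 3.15%. No Malat1 UMI was found in 79 of 158 low cells, 27 of 174 middle cells and 3 of 246 high cells. Across the 578 cells, which share a library and are measured as shares of 1 total, the Spearman correlation of the Malat1 and mitochondrial shares was 0.72, and 0.75 with Malat1 taken as a share of non-mitochondrial UMIs. It was −0.02 across the 3426 deep Cxcl12-rich cells.

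**Figure D2:**
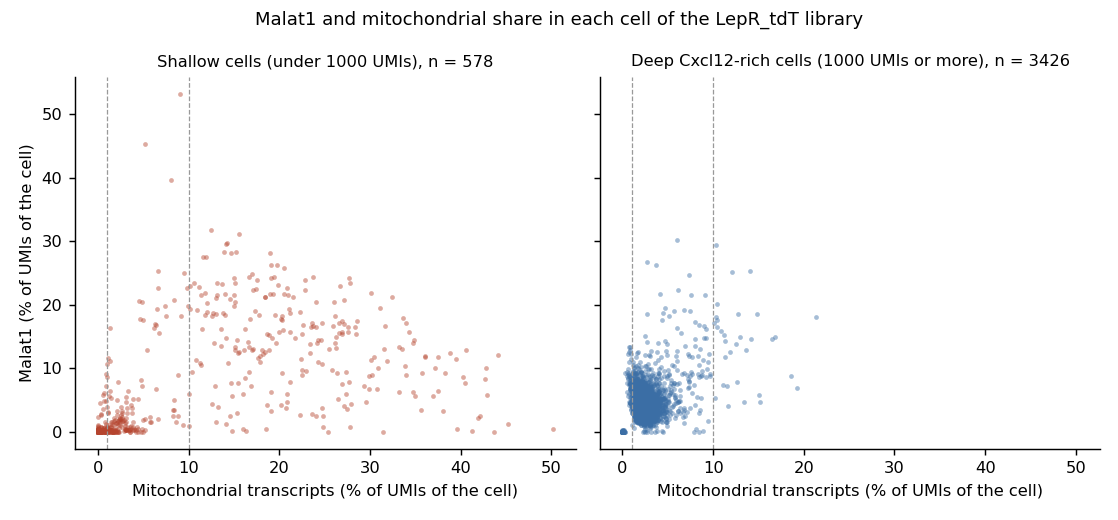
Malat1 share (y axis) against mitochondrial share (x axis) of the UMIs of each cell, for the 578 shallow cells on the left and the 3426 deep Cxcl12-rich cells on the right; dashed lines mark 1% and 10% mitochondrial UMIs. Shallow cells fill the corner near 0 on both axes and a wide field up to 50.2% mitochondrial UMIs, whereas deep cells gather around a median of 2.20%.

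**Figure D3:**
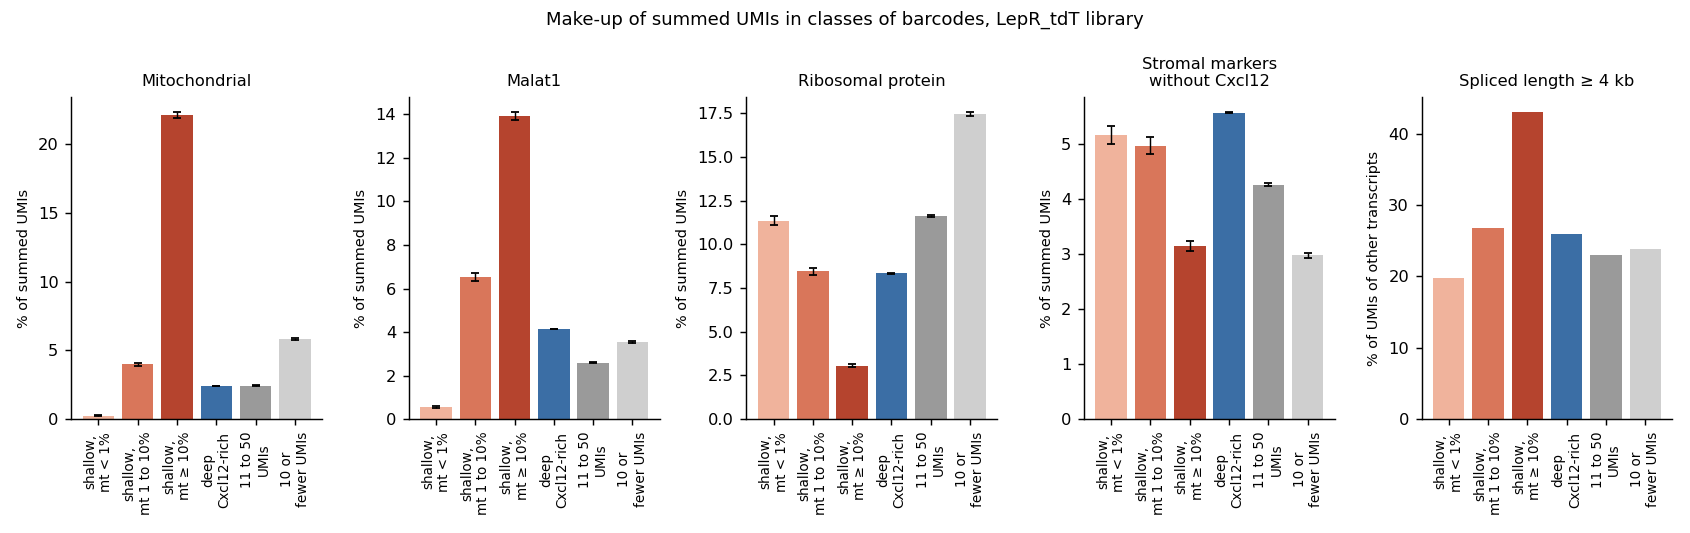
Share of summed UMIs taken by mitochondrial transcripts, Malat1, ribosomal protein messages and stromal markers without Cxcl12, and share of spliced transcripts of 4 kb or more among UMIs that are not mitochondrial, ribosomal or Malat1, in shallow cells by mitochondrial (mt) share, deep Cxcl12-rich cells and barcodes with 11 to 50 or with 10 or fewer UMIs. Error bars are exact 95% intervals for counting error, absent from the last panel. Malat1 and long transcripts increase over the 3 ranges of shallow cells, which were cut by mitochondrial share, and ribosomal protein messages decrease.

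The 3 ranges also differed when cells of like depth were set side by side. Between 400 and 599 UMIs, Malat1 was 0.584% of UMIs in 40 low cells, 5.09% in 42 middle cells and 13.5% in 117 high cells, and ribosomal protein messages were 11.5%, 8.49% and 3.00%. Between 600 and 999 UMIs, Malat1 was 0.373% in 33 low cells, 12.9% in 37 middle cells and 14.6% in 98 high cells. Below 400 UMIs the shares were 0.676%, 1.33% and 11.6% in 85, 95 and 31 cells in the same order. The 14 barcodes shared with EC at near equal depth were all in the middle range.

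In cells of the high range, long and nuclear transcripts were higher and most short messages lower than in deep cells. Against deep Cxcl12-rich cells, 49 of 593 measured genes were at least 2-fold higher, 8.26%, 10 of them mitochondrial genes, which the choice of the range fixed, and 312 were lower, 52.6%, with a median log2 ratio of −1.10 over all measured genes. All 17 measured nuclear-encoded respiratory chain genes were lower (median −1.42), as were 13 of 16 glycolytic and cytosolic genes (median −1.40) and 5 of 6 genes of the endoplasmic reticulum. Of 27 measured stromal markers, Cxcl12 included, 12 were lower and 1 higher, where 52.6% of all measured genes were lower. Their median of −0.89 lay above the −1.10 of all measured genes. Of 11 stromal transcription factors 6 were higher and 0 lower (median 1.03). Summed over that list, without the filter for measured genes, the log2 ratio was 0.63 (0.54 to 0.71). Leading higher genes were Nfat5 (2.52), Kcnq1ot1 (2.50), Etnk1, Clk1 and Nktr. At 63.1 CPM (Nfat5) to 157.8 CPM (Nktr) in deep cells, they reached the 30 UMI minimum only through the high range. At equal levels they would not have counted as measured, so the filter fixed their direction. Leading lower genes were Krtcap2, Spcs1, Prdx4, Psmb8 and Dad1, several of them parts of the secretory pathway. By spliced length, leaving out mitochondrial, ribosomal and Malat1 transcripts, the median was −1.41 for 52 genes under 1 kb and 0.92 for 30 genes of 8 kb and over. The filter lets in genes of low CPM in deep cells only where the high range is higher, which can raise such medians. Transcripts of 4 kb or more took 43.0% of other UMIs in the high range, against 26.0% in deep cells. Genes spanning 100 kb or more took 13.7% against 7.04%, and these UMI shares do not depend on the filter.

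**Figure D4:**
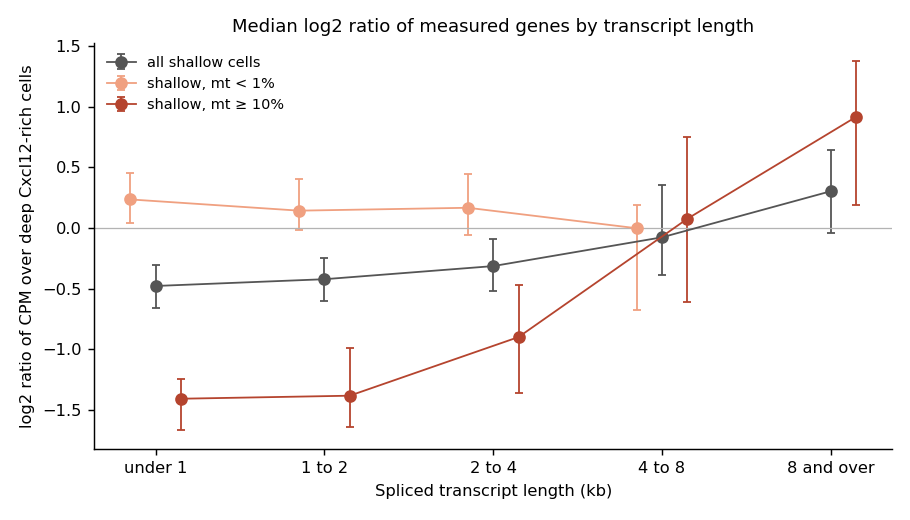
Median log2 ratio of CPM over deep Cxcl12-rich cells (y axis; bars span the quartiles over genes) for measured genes in bins of spliced transcript length (x axis, kb), for all shallow cells and for those with under 1% or at least 10% mitochondrial (mt) UMIs; bins with fewer than 20 genes are not drawn. The high range passes from −1.41 under 1 kb to 0.92 at 8 kb and over, and the low range stays between 0.14 and 0.24 up to 4 kb. Mitochondrial, ribosomal protein and Malat1 transcripts are left out. Genes of low CPM in deep cells are measured only where the shallow cells hold more.

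Cells of the low range, chosen for few mitochondrial UMIs, held the measured stromal markers near the level of deep cells, fewer stromal transcription factor UMIs and little Malat1. Against deep Cxcl12-rich cells, 6 of 338 measured genes were higher, 1.78%, and 17 were lower, 5.03% (median 0.25). Of the 17 lower genes 8 were mitochondrial, which the limit of 1% fixed. Malat1 stood at 5413 CPM in low-range cells and 41430 CPM in deep cells (log2 ratio −2.94), and the immediate early genes Egr1 and Jun were lower. Of 21 measured stromal markers, Cxcl12 included, 0 were called, and their median of −0.11 lay below the 0.25 of all measured genes. Summed stromal transcription factors were at −0.95 (−1.16 to −0.76), with 1 of 2 measured members lower. The higher genes were 4 haemoglobin genes, Fabp4 and Mmp13, the collagenase of bone and cartilage, at 1259 CPM against 324.6 CPM. All of these higher genes counted as measured only through the low range. Mmp13 had 134 UMIs in 62 shallow cells, 25 of them in 1 cell. Of the 7 cells with 10 or more haemoglobin UMIs, 4 were in the low range. Against the 89697 barcodes of this library with 11 to 50 UMIs, whose ribosomal protein share (11.6%) was near that of the low range (11.4%), 10 of 329 measured genes were higher, 3.04%, and 14 lower, 4.26%. The 7 measured mitochondrial genes were among the lower ones, again by the choice of the range. Malat1 (−2.26) and both measured granulocyte markers were lower too, while 0 of 17 stromal markers were called (median 0.49). With 20 UMIs over their whole list in the low range, the granulocyte markers counted as measured only through the other barcodes, so the filter fixed their direction. Summed over that list without the filter, the log2 ratio was −4.70 (−5.42 to −4.08).

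The ranges differed from each other in most measured genes. In high-range over low-range cells, 34 of 287 measured genes were at least 2-fold higher, 11.8%, 10 of them mitochondrial by the choice of the ranges, and 200 were lower, 69.7%, around a median of −1.59, so the values below are to be read against that shift. Malat1 was at 4.68 (4.54 to 4.83), Zeb2 at 4.16, Neat1 at 4.05, the RNA-binding protein gene Son at 3.98 and Ptprd at 3.74. Pdgfrb, a receptor of these stromal cells, stood at 891.8 CPM in the high range and 97.9 CPM in the low range, Ebf1 at 2181 against 405.6 CPM, and Lepr at 1261 against 405.6 CPM. Apart from Malat1, the genes just named had fewer than 30 UMIs in the low range. They counted as measured only through the high range, so the filter fixed their direction. Kitl was at 968.4 CPM in the high and 503.6 CPM in the low range (0.94). Adipoq was at 752.4 CPM in the high and 2210 CPM in the low range (−1.55), and Cxcl12 at 16944 against 36760 CPM. The carboxypeptidase gene Cpq, the lowest ranked, was at −2.98, and with 15 UMIs in the high range it passed through the low range alone. Of 20 measured stromal markers 5 were higher and 10 lower, where 11.8% of all measured genes were higher and 69.7% lower. The median of the markers was −1.02, against −1.59 over all measured genes. Pdgfrb and Lepr were among the 5, and the filter fixed their direction, so these counts do not show a division of the list. Thinned to 300 UMIs per cell, a Lepr UMI was seen in 30.2% of high-range cells (24.5 to 36.4), 7.38% of low-range cells (3.43 to 13.5) and 0.50% of deep EC cells. Free RNA of the same library held Lepr at 274.1 CPM, by which 7.89% of draws of 300 UMIs would hold a Lepr UMI, so the low-range share is at that background and the high-range share above it. The shares before thinning were 49.6%, 13.9% and 5.47%, at median depths of 540, 370.5 and 3401.5 UMIs, with 1, 36 and 0 cells too shallow to thin. Deep Cxcl12-rich cells stood at 17.9% (16.6 to 19.2) thinned and 89.4% before, at a median of 4677 UMIs. The middle range stood at 20.3% (13.8 to 28.1) thinned and 25.3% before, at a median of 383.5 UMIs, with 41 cells too shallow.

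Along depth, the mitochondrial share of all LepR_tdT cells was not monotonic. It was 1.57% of summed UMIs at 235 to 299 UMIs (78 cells), 6.41% at 300 to 399, 16.2% at 400 to 599, 13.2% at 600 to 799 and 11.4% at 800 to 999, then 7.15% at 1000 to 1499 and 2.36% at 3000 to 5999. The limit of 1000 UMIs cut through this course: 33 cells of 900 to 999 UMIs held 10.1% mitochondrial UMIs and 10.2% Malat1, and 31 cells of 1000 to 1099 UMIs held 6.46% and 9.16%. Deep Cxcl12-rich cells with 10% or more mitochondrial UMIs numbered 32, had a median of 1330 UMIs and resembled the high range in Malat1 (13.3%), ribosomal protein messages (2.93%) and transcripts of 4 kb or more (41.2%). Deep Cxcl12-rich cells with less than 1% mitochondrial UMIs numbered 112, with a median of 2428 UMIs. Their summed UMIs were 4.81% Malat1 and 7.68% ribosomal protein messages, against 0.541% and 11.4% in the low range. Of these 112 cells, 52 also had Malat1 below 1%, with a median of 1673 UMIs, and 142 shallow cells met both limits.

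**Figure D5:**
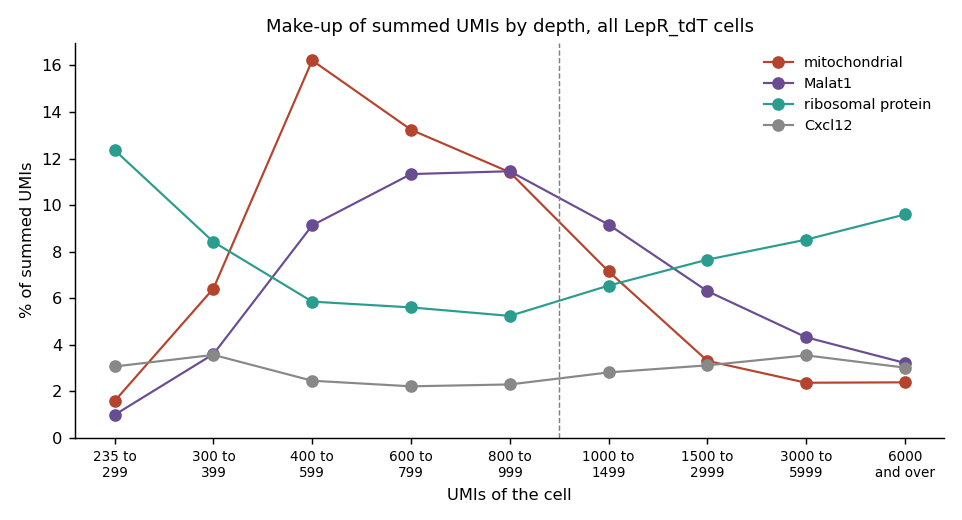
Share of summed UMIs taken by mitochondrial transcripts, Malat1, ribosomal protein messages and Cxcl12 (y axis) in all LepR_tdT cells grouped by their UMIs (x axis); the dashed line marks 1000 UMIs. The mitochondrial share is 1.57% in the shallowest group and 16.2% at 400 to 599 UMIs.

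The endothelial library also had shallow cells, in which mitochondrial transcripts, Malat1 and long transcripts took larger shares than in its deep cells. Its 736 cells under 1000 UMIs (16.2% of 4536) held 13.5% mitochondrial UMIs, against 3.86% in its 3800 deep cells, and Malat1 was 11.7% against 5.70%. Of 2030 measured genes 46 were higher there, 2.27%, and 36 lower, 1.77%, and transcripts of 4 kb or more took 34.4% against 28.6% of other UMIs. Divided by the same mitochondrial limits, Malat1 was 1.55%, 5.58% and 17.0% in 129 low, 237 middle and 370 high cells, and the Spearman correlation of the Malat1 and mitochondrial shares across the 736 cells was 0.62. Other groups went in opposite directions. Their comparators were unlike, deep Cxcl12-rich cells in LepR_tdT and all deep cells in EC. Erythroid markers were at log2 ratios of 2.95 in LepR_tdT and −1.03 in EC, and granulocyte and monocyte markers at 2.31 and −2.85. All deep LepR_tdT cells held 0.155% haemoglobin UMIs, against 0.05% in the Cxcl12-rich ones and 0.435% in shallow cells. In shallow LepR_tdT cells 1110 of 1281 haemoglobin UMIs were in 7 cells. The granulocyte and monocyte sum there was 142 UMIs, with 0 of 16 markers measured singly. Whether the size of these differences differed between the libraries was not tested.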

How the data were processed

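The authors deposited 1 matrix of raw UMI counts, with 27999 gene rows and 1474560 barcodes over the 2 libraries. Per the submitters' processing notes, the tools were Seurat 2.3.4 and Cell Ranger 2.1.1 and the build mm10, with their roles unstated. The counting settings are not given in the sources used here, so strand handling is unknown. The authors' deposited cell table gives the library, UMI count and gene count of each cell, and both numbers were reproduced for all 8786 cells.

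Members were the LepR_tdT cells with fewer than 1000 UMIs. Members, gene lists (345 entries in 21 lists) and comparisons were chosen with earlier results of these data known. UMIs were summed per class and scaled to 1000000 (CPM). Intervals were exact (Poisson for sums, Clopper-Pearson for shares and, conditional on the total, for ratios, 95%), with counts below 3 UMIs set to 3 in ratios. Amplified reads are collapsed to UMIs, and the intervals cover counting error only. The ranked genes were the 10 highest and 10 lowest over deep cells and 5 and 5 over free RNA, at 100 CPM or more in the higher class. The other rankings, the mitochondrial ranges and genes named as checks were chosen after their values were seen. Gene lengths and sequences came from GENCODE M21 (GRCm38), matched by identifier for 27645 genes. Genes that overlap a neighbour or have pseudogene copies are uncertain in counts of this kind. Cells were not filtered beyond the authors' table and no doublet caller was run, since the members have few UMIs. The share of draws from free RNA that would hold a UMI was computed from its measured share by the binomial distribution. The ratio and call steps were tested on simulated data. Not analysed here were 11 listed symbols that were absent or ambiguous, among them Tug1 and Rian. Python 3.11.15, numpy 2.4.6, scipy 1.17.1, pandas 2.3.3 and matplotlib 3.10.9 were used. The alternatives tried are given in the closing section.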

Additional observations from a re-analysis of the deposited data

Results flagged for a closer look

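For 5 gene lists the shallow cells lay on the other side of deep cells in the LepR_tdT library than in the EC library, each value being a log2 ratio of summed UMIs with 1 library behind it, and the difference between the libraries was not tested. Erythroid markers were at 2.95 in shallow over deep Cxcl12-rich cells of LepR_tdT and −1.03 in shallow over deep cells of EC. Granulocyte and monocyte markers were at 2.31 in LepR_tdT and −2.85 in EC, endothelial markers at 1.90 and −0.41, proliferation genes at 1.08 and −0.48, and pericyte and smooth muscle markers at 0.98 and −0.38. In shallow LepR_tdT cells the granulocyte and monocyte sum was 142 UMIs, and 1110 of 1281 haemoglobin UMIs were in 7 cells. The deep LepR_tdT cells had been chosen for Cxcl12 and the deep EC cells for nothing but depth, so the classes set against each other are not alike.

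Signals were also present in barcodes outside the cell table. The 260 LepR_tdT barcodes in the UMI range of the shallow cells that the table leaves out held 38.0% mitochondrial and 6.78% haemoglobin UMIs, against 11.9% and 0.435% in the shallow cells of the table. Xist was at 368 CPM in barcodes with 10 or fewer UMIs, against 27.1 CPM in shallow cells and 1.33 CPM in deep Cxcl12-rich cells. Rpl13a-ps1, a ribosomal protein pseudogene whose reads can be shared with its parent gene, was at 914 CPM in those barcodes and had 0 UMIs in shallow cells, which allows up to 10.2 CPM, against 2.24 CPM in deep Cxcl12-rich cells.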

How the results depend on the processing

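No paired analysis was possible because each group has 1 library. For each of 11 results, alternatives gave 115 values in all: 39 stayed inside the interval of the reported value (for counts of genes, within 1.5 times), 72 moved outside it in the same direction and 4 reversed. The intervals cover counting error only and are narrow. Values are given as log2 ratios of shallow cells, first over deep Cxcl12-rich cells for mitochondrial transcripts, nuclear-retained transcripts and the stromal marker median (2.32, 1.07 and −0.34 as reported), then over free RNA for the same groups (1.03, 1.27 and 0.61). The reported counts are 35 genes higher and 17 lower.

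The 4 reversals came from leaving out the cells at or above the median mitochondrial share. Over deep cells mitochondrial transcripts were then at −1.06 and nuclear-retained ones at −1.85, over free RNA at −2.35 and −1.65. For mitochondrial transcripts this follows from the selection. For nuclear-retained ones the cause was not tested. The stromal medians were −0.40 and 0.79 and 10 genes were higher. With a limit of 500 UMIs (335 cells) 13 genes were higher and 6 lower, the ratios over deep cells were 1.99 and 0.41, and those over free RNA 0.70, 0.61 and 0.67. With a limit of 1500 UMIs (705 cells) 64 genes were higher, with 2.12, 1.11 and −0.31 over deep cells and 0.81 and, for stromal markers, 0.67 over free RNA. All deep cells as comparator gave 2.28, 1.09 and −0.31, and a Cxcl12 limit of 2% gave 2.34 for mitochondrial transcripts.

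Free RNA from 5 or fewer UMIs gave 0.93, 1.39 and 0.38, and barcodes with 11 to 50 UMIs 2.29, 1.72 and 0.13. Free RNA without barcodes of EC cells, also an alternative added after the data were seen, gave 1.30 for nuclear-retained transcripts. Scaling without mitochondrial genes left 6 genes lower and gave 1.22 and −0.19 over deep cells and 1.36 and 0.69 over free RNA. The trimmed mean of M values gave 2.27, 1.03 and −0.39 over deep cells and 0.92, 1.16 and 0.50 over free RNA. Scaling by the median ratio gave 79 genes higher and 2 lower, with 2.63, 1.38 and −0.028 over deep cells and 1.09, 1.33 and 0.67 over free RNA. The mean of cell shares gave 2.099, 0.70 and −0.38 over deep cells, and 0.89 and 1.03 over free RNA.

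A minimum of 10 UMIs gave 213 genes higher and 138 lower and a stromal median of −0.40, and a minimum of 100 UMIs 16 and 2. At 1.5-fold 98 genes were higher and 266 lower, and at 3-fold 20 and 1. Without the cells that share a barcode with EC, the ratios over deep cells were 2.33 and 1.09. Without the 116 cells holding markers of other cell types, 22 genes were higher and 11 lower, with 2.29 and −0.26 for stromal markers over deep cells, and 1.00 and 0.65 over free RNA.

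The ratios of the high over the low range, 4.68 for Malat1, −1.89 for ribosomal protein messages and 1.12 for long transcripts, kept their direction under the alternatives run, 5 each for Malat1 and ribosomal protein messages and 4 for long transcripts, all chosen after the data were seen. Malat1 was at 6.20 with limits of 0.5% and 5%, 3.94 with 2% and 15%, and 5.04 scaled without mitochondrial genes, where ribosomal protein messages were at −1.54. Depth limits single genes: 30 UMIs correspond to 101.8 CPM in shallow cells.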
